A study of Rattus norvegicus with 12 samples.

Results

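Genes for mitochondrial DNA maintenance and transcription, 10 in all, were followed in rat hearts after myocardial infarction with and without urolithin A (UA), a gut-derived metabolite of plant ellagitannins. They were chosen by name, as Polg, Polg2, Twnk, Ssbp1, Mgme1, Polrmt, Tfam, Tfb1m, Tfb2m and Lonp1, among the 30560 genes of the count table, and all 10 were among the 18182 genes with at least 10 counts in total. RNA came from formalin-fixed, paraffin-embedded sections of the middle left ventricle of 12 male Wistar rats, with 1 library per rat and 4 rats per group. Sham rats had their chest opened without ligation at 7 weeks of age and received vehicle (carboxymethylcellulose) by daily gavage. MI rats had the left anterior descending coronary artery permanently tied at the same age and received the same vehicle, and MI+UA rats had the ligation and received UA at 50 mg per ml, in each case for 8 weeks. The 50 mg per ml is a concentration from the labels, and the sources used here differ on the dose and on the day UA began. Rat 66 carries the label of the UA group, while the study's echocardiography table places it among the vehicle-treated MI rats. It was counted as MI+UA, and for the 10 genes the calls and signs that change when it is counted as MI are given. The sections hold every cell type of the ventricle, so fewer cells of a type and less RNA per cell cannot be told apart.

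Mitochondrial DNA is a small circular genome that encodes subunits of the respiratory chain, and every protein needed to copy and read it is encoded in the nucleus. DNA polymerase gamma, made of the catalytic subunit Polg and the accessory subunit Polg2, copies the genome behind the Twinkle helicase (Twnk), while the single-stranded DNA-binding protein Ssbp1 covers the exposed strand and the exonuclease Mgme1 trims the ends. Transcription starts when the RNA polymerase Polrmt, the packaging and promoter-binding factor Tfam and the initiation factor Tfb2m meet at the promoters. Tfb1m, a relative of Tfb2m, methylates the RNA of the small mitochondrial ribosomal subunit, and the matrix protease Lonp1 degrades, among other substrates, Tfam that is not bound to DNA. The heart depends on this system for its respiratory chain more than most tissues do.

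The promoters of the transcription genes are shown because Tfb2m changed with infarction and its partners are the natural comparison. RefSeq sequences on the build GRCr8 were matched for 9 of the 10 genes, Lonp1 being the exception. The windows of 250 bases that end just before the annotated start lie at chr13:93828595-93828844 on the minus strand for Tfb2m, chr20:17355123-17355372 on the plus strand for Tfam, chr7:10609946-10610195 on the plus strand for Polrmt and chr1:46566949-46567198 on the minus strand for Tfb1m. They are written 5′ to 3′ in the direction of the gene, and capitals mark matches to the motif of nuclear respiratory factor 1 (NRF1, GCGCANGCG) in Tfb2m and to the GA-binding protein motif (GABP, CCGGAAG) in Tfam and Polrmt.
Tfb2m: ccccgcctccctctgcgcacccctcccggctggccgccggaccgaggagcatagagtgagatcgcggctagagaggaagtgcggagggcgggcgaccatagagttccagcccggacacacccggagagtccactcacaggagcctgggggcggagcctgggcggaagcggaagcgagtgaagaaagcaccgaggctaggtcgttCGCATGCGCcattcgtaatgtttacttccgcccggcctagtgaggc
Tfam: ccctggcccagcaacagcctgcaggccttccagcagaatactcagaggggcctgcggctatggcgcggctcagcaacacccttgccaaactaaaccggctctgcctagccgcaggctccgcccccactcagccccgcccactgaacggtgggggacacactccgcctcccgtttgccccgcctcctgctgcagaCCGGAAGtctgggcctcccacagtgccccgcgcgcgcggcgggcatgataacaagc
Polrmt: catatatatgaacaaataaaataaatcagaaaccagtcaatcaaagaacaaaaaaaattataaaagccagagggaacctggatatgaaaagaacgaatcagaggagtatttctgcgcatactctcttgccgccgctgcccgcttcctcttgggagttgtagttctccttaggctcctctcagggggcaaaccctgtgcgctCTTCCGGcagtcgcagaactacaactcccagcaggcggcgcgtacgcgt
Tfb1m: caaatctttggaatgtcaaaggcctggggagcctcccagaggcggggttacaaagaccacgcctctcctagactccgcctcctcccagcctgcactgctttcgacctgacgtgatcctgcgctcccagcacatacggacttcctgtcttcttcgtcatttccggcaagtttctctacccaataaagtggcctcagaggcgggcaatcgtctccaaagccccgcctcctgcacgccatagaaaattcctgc

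The motifs were searched on both strands in the same windows of 33469 RefSeq promoters, of which 5.09% held the NRF1 letters and 7.27% the GABP letters. Among the 9 matched genes, 1 held the NRF1 letters (Tfb2m, 46 to 38 bases before the start) and 4 held the GABP letters (Polg, Twnk, Polrmt and Tfam). The Tfam match lay 56 to 50 bases before the start and the Polrmt match 49 to 43 bases before it. Twnk held the GABP letters in 2 places. A motif of the estrogen-related receptors (TNAAGGTCA, in 1.04% of promoters) and the E-box (CACGTG, in 5.59%) were in none of the 9 windows, and in Tfb1m none of the 4 motifs was found. A match describes these letters and is not a measured binding site.

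Reads on genes numbered from 6228706 to 19031695 per library, and the 10 genes together took from 540 to 1632 of them, so counting error was large for several genes. Lowest was Mgme1, with 4 to 29 reads per library, followed by Polg2 with 7 to 35, Tfb1m with 15 to 77 and Ssbp1 with 24 to 56. Tfb2m had 121 to 476 reads and Lonp1 95 to 315. Levels are given as CPM, the read count scaled by library size after TMM normalisation. Transcript lengths were not used, so CPM does not rank genes by transcript number, and ratios between genes were compared only between groups of rats. Gene coordinates are not given because the counts were made on mRatBN7.2 and no annotation of that build was used. In RefSeq's GRCr8 annotation other genes overlap 4 of the 10 (Fanci over Polg, Mrpl43 over Twnk, Tiam2 and Cldn20 over Tfb1m, and Catsperd over Lonp1, besides the pseudogene Tmem127-ps1 over Tfb1m, which was not analysed here). Each of the 5 analysed had a mean of at most 5.88 CPM in Sham and in MI and an edgeR adjusted p of at least 0.217 between them. Tiam2 averaged 4.31 CPM in Sham and 5.88 CPM in MI, more reads than Tfb1m (3.33 and 3.59 CPM). Whether Tfb1m counts hold Tiam2 reads was not tested.

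Infarction was compared with sham surgery first. Tfb2m fell by 24.9% and Lonp1 fell by 24.6%, and the other 8 genes did not pass the test. A total of 8 of the 10 genes had a log2 fold change below 0, with a median of -0.33 over the 10, against a median of 0.03 over all genes tested. Calls made at an edgeR adjusted p-value under 0.05 covered 2 of the 10 genes (20%), both lower in MI, while 11.4% of all genes tested were called and 5.53% were called lower. For no member did the MI rats lie wholly apart from the Sham rats, which was the case for 15.7% of all genes.

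Tfb2m (ENSRNOG00000002695), the initiation factor, stood at 22.6, 26.3, 35.0 and 30.8 CPM in Sham rats 12, 17, 32 and 38. In MI rats 36, 57, 61 and 89 it stood at 23.6, 19.0, 19.4 and 23.1 CPM. Rats 36 and 89 of the MI group overlapped Sham rat 12, the lowest of its group, and the other Sham rats lay above every MI rat. Mean levels (± SD, n = 4 per group) were 28.7 ± 5.40 CPM for Sham and 21.3 ± 2.43 CPM for MI. The log2 fold change was -0.41 with a standard error of 0.13 (adjusted p = 0.0386 by edgeR). DESeq2 also called it (adjusted p = 0.0230). The call was lost with rat 66 counted as MI (-0.34, edgeR adjusted p = 0.100) and in the fits without rat 32, 38, 57 or 61, where the adjusted p ran from 0.0872 to 0.157 and the log2 fold change from -0.31 to -0.37.

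Lonp1 (ENSRNOG00000046502), the matrix protease, was at 20.2, 18.5, 22.4 and 23.6 CPM in Sham rats 12, 17, 32 and 38 and at 19.0, 14.9, 14.5 and 15.1 CPM in MI rats 36, 57, 61 and 89. Only MI rat 36 reached the Sham range, and it did so above Sham rat 17 alone. Means (± SD, n = 4 per group) were 21.2 ± 2.28 CPM for Sham and 15.9 ± 2.10 CPM for MI. The log2 fold change was -0.41 with a standard error of 0.12 (adjusted p = 0.0373 by edgeR and 0.0266 by DESeq2). The call was lost in each of the fits without rat 12, 32, 38, 57, 61 or 89, with edgeR adjusted p-values from 0.0508 to 0.131 and log2 fold changes from -0.35 to -0.43.

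**Figure D1:**
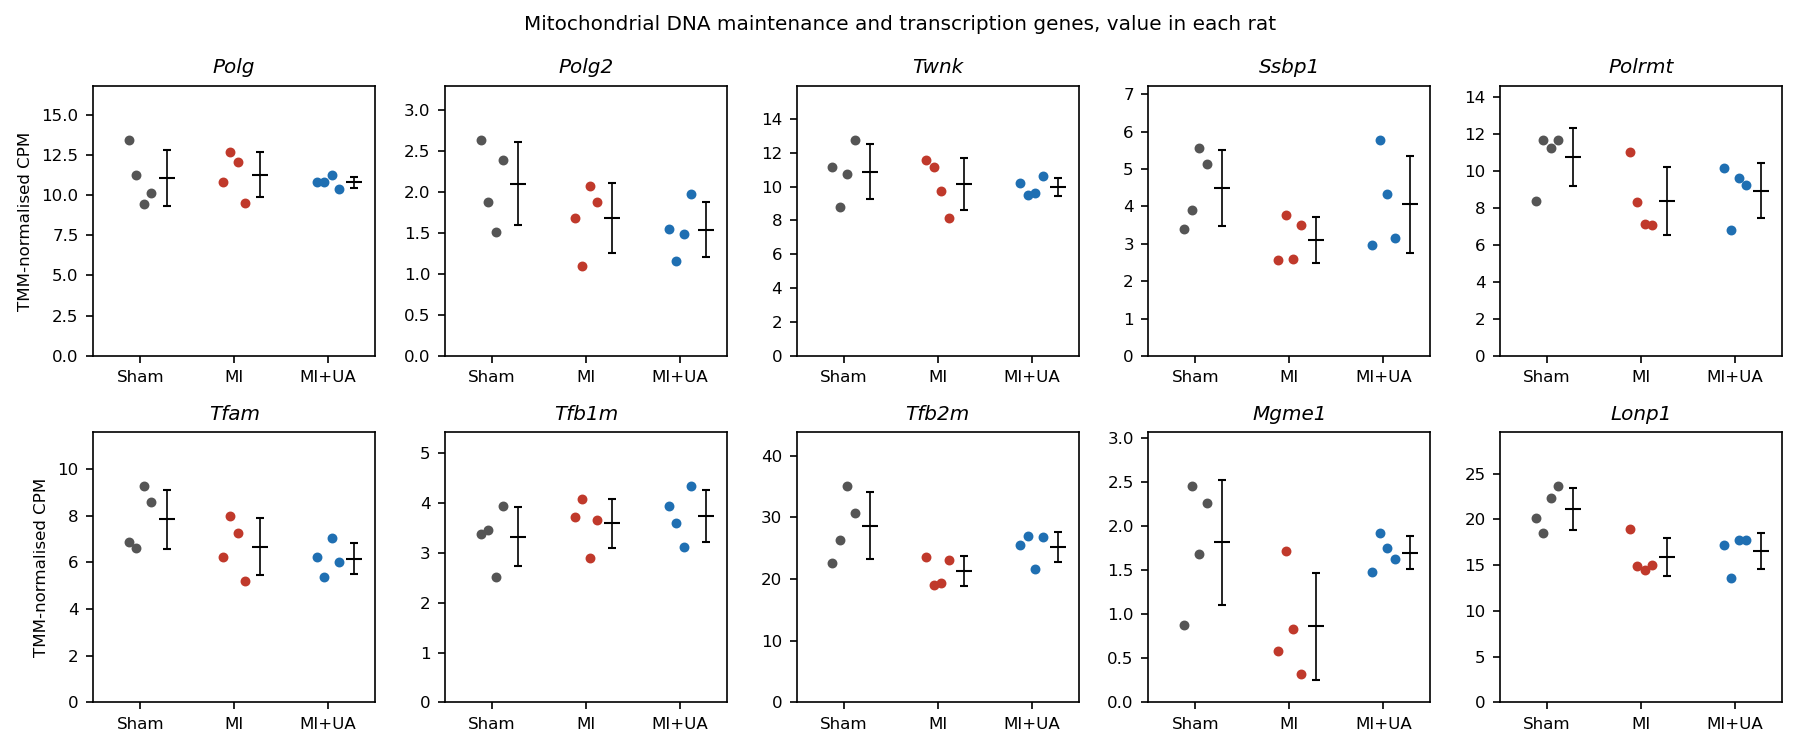
Each panel plots 1 gene, with TMM-normalised CPM on the y axis, 1 point per rat in Sham, MI and MI+UA, and the group mean with its SD as a bar beside the points. Tfb2m and Lonp1 sit lower in MI, Mgme1 is low in 3 of the 4 MI rats, and Polg and Twnk lie at like levels in the 3 groups.

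The partners of Tfb2m at the promoters were lower in MI by amounts that did not pass the test. Polrmt (ENSRNOG00000024879), the polymerase, read 8.40, 11.7, 11.3 and 11.7 CPM in Sham rats 12, 17, 32 and 38 and 11.0, 8.31, 7.16 and 7.09 CPM in MI rats 36, 57, 61 and 89. MI rat 36 lay above Sham rat 12, and the other MI rats lay below every Sham rat. The log2 fold change was -0.34 (95% interval -0.71 to 0.02, edgeR adjusted p = 0.236), and it ran from -0.53 without MI rat 36 (edgeR adjusted p = 0.0614) to -0.26 without MI rat 89 (edgeR adjusted p = 0.464). Tfam (ENSRNOG00000000613) averaged 7.84 ± 1.28 CPM for Sham and 6.67 ± 1.22 CPM for MI (± SD, n = 4 per group), with a log2 fold change of -0.25 (95% interval -0.61 to 0.11, edgeR adjusted p = 0.416) that was -0.14 without MI rat 89.

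Tfb1m (ENSRNOG00000056223), the rRNA methyltransferase and the relative of Tfb2m, was not lower in MI by its point estimate. It was at 3.39, 3.46, 2.52 and 3.93 CPM in Sham rats 12, 17, 32 and 38 and at 3.73, 4.08, 2.91 and 3.67 CPM in MI rats 36, 57, 61 and 89, with a log2 fold change of 0.09 (95% interval -0.36 to 0.54, edgeR adjusted p = 0.856). Within each rat, the log2 ratio of Tfb2m to Tfb1m averaged 3.07 ± 0.46 for Sham and 2.54 ± 0.23 for MI (± SD, n = 4 per group). The difference was -0.53 and the groups did not overlap. An exact permutation test (two-sided) gave p = 0.0286, the lowest value open to 4 rats against 4, and the p adjusted over the 16 ratios tested was 0.229. With each rat left out in turn the p ran from 0.0286 to 0.0857, and with a prior count of 0.25 in place of 1 it was 0.0571. The difference narrowed to -0.30 without Sham rat 32, which had the highest Tfb2m and the lowest Tfb1m of its group.

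Of the replication genes, the polymerase and the helicase were measured most closely and differed least. Polg (ENSRNOG00000032293) ran from 9.43 to 13.4 CPM in Sham and from 9.53 to 12.7 CPM in MI, with a log2 fold change of 0.01 (95% interval -0.28 to 0.30, edgeR adjusted p = 0.980). Twnk (ENSRNOG00000014935) ran from 8.80 to 12.8 CPM in Sham and from 8.15 to 11.5 CPM in MI, with a log2 fold change of -0.11 (95% interval -0.41 to 0.19, edgeR adjusted p = 0.721). The Sham and MI ranges of both genes overlapped, with Sham rat 38 above every MI rat and MI rat 89 below every Sham rat for Twnk.

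The accessory subunit Polg2 (ENSRNOG00000013728) had 1.51 to 2.63 CPM in Sham and 1.10 to 2.08 CPM in MI (log2 fold change -0.31, standard error 0.30, edgeR adjusted p = 0.592), and the estimate was -0.18 without Sham rat 12. Ssbp1 (ENSRNOG00000012100), which covers single-stranded DNA, was at 3.39, 3.90, 5.55 and 5.13 CPM in Sham rats 12, 17, 32 and 38 and at 2.56, 3.76, 2.59 and 3.50 CPM in MI rats 36, 57, 61 and 89. Its log2 fold change of -0.54 (standard error 0.26) had an unadjusted p of 0.0456 in edgeR and an adjusted p of 0.197. At this depth a fall of that size was not told from 0 over all genes tested.

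Mgme1 (ENSRNOG00000028196), the exonuclease, had the largest point estimate of the 10 genes and the fewest reads. Sham rats 12, 17, 32 and 38 gave 7, 17, 10 and 19 reads, or 0.878, 2.45, 1.68 and 2.27 CPM. MI rats 36, 57, 61 and 89 gave 8, 11, 8 and 4 reads, or 0.585, 1.72, 0.830 and 0.326 CPM, and the 4 reads of rat 89 carry an exact Poisson 95% interval from 1.09 to 10.2 reads, which covers counting error only. MI rats 36, 61 and 89 lay below every Sham rat, and rat 57 lay above Sham rats 12 and 32. The log2 fold change was -1.21 (standard error 0.43, 95% interval -2.12 to -0.30), with an edgeR adjusted p of 0.0809. It passed the threshold in the fit without Sham rat 12 (-1.46, edgeR adjusted p = 0.0349) and in the fit without MI rat 57 (-1.66, edgeR adjusted p = 0.0158). It was smaller without MI rat 89 (-0.91, edgeR adjusted p = 0.237) and with rat 66 counted as MI (-0.86, edgeR adjusted p = 0.225).

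**Figure D2:**
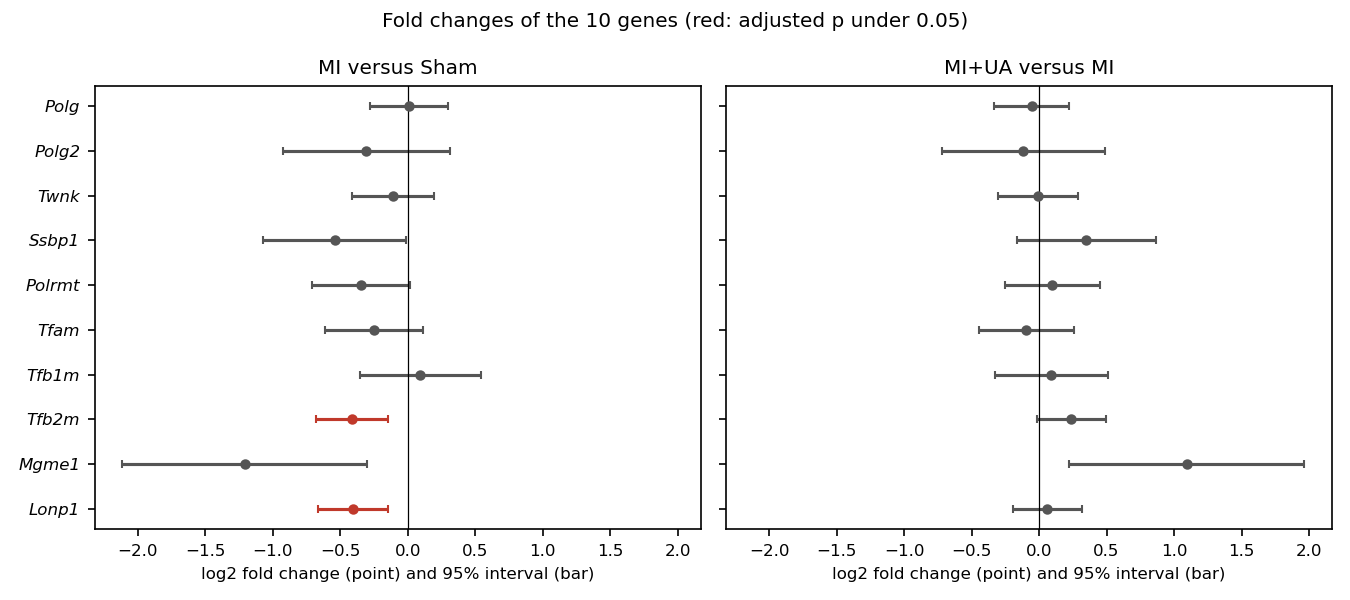
Points are log2 fold changes from the edgeR fit and bars their 95% intervals, for MI versus Sham on the left and MI+UA versus MI on the right, with genes on the y axis and red for an adjusted p under 0.05. Tfb2m and Lonp1 (-0.41 each) are the red points on the left, no point on the right is red, and the bars of Mgme1 and Polg2 are the widest.

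Other quantities moved with the groups of this comparison. Of 8 cardiomyocyte markers, 7 were measured and all 7 were lower in MI in edgeR, led by Myh6, the alpha myosin heavy chain of the adult rodent ventricle (log2 fold change -1.08). Their summed level ranged from 14585 to 17099 CPM in Sham and from 9664 to 10377 CPM in MI. On the log2 scale the mean of that sum fell by 0.65, and without Myh6 it fell by 0.45, beside a fall of 0.41 for Tfb2m and for Lonp1. Of 8 fibroblast markers 6 rose and their sum went from 1127 to 1439 CPM in Sham to 2188 to 3574 CPM in MI, and of 8 macrophage markers 7 rose, from a summed 119.9 to 138.6 CPM to a summed 213.2 to 258.9 CPM. Among 7 measured smooth muscle and pericyte markers 4 rose, and of the 6 endothelial markers measured Kdr alone changed, being lower in MI. None of 3 adipocyte markers measured was called by edgeR or DESeq2, 2 having an unadjusted p under 0.05. Reads placed on genes were 50.4% to 53.4% of those that fell on genes, outside genes or on several genes in Sham and 47.6% to 49.8% in MI. The part of these shifts in the Tfb2m and Lonp1 results was not tested.

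**Figure D3:**
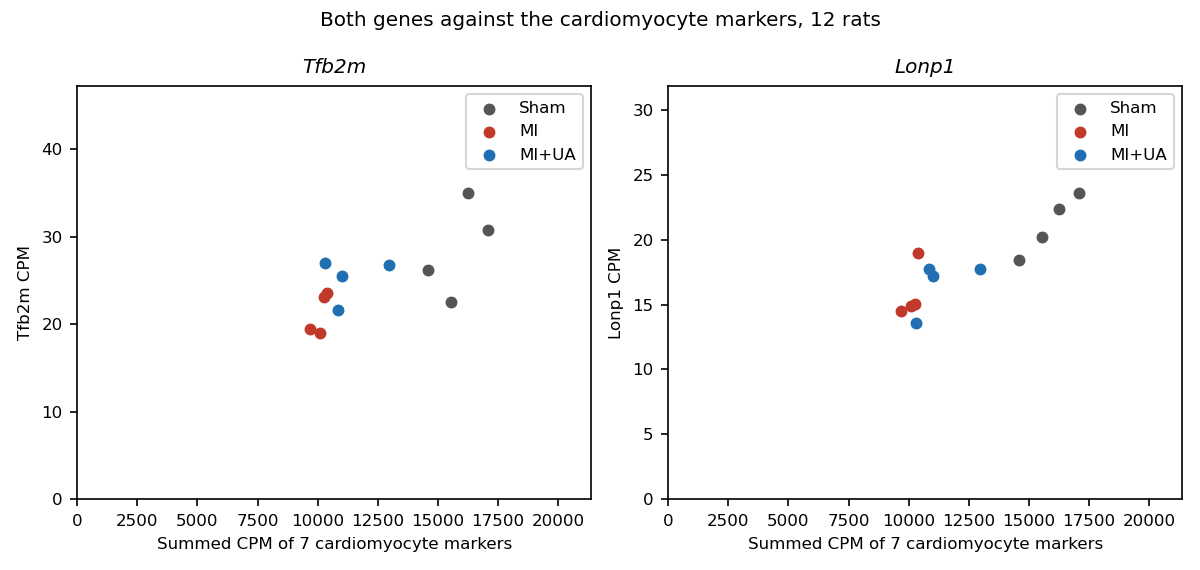
Each point is a rat, with the summed CPM of 7 cardiomyocyte markers on the x axis and the CPM of Tfb2m (left) or Lonp1 (right) on the y axis, coloured by group. The 4 Sham rats stand to the right of all others at 14585 CPM or more, and the MI and MI+UA rats stand to the left.

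The wider pathway was read from 6 lists that hold 69 genes, of which 67 were tested. In MI versus Sham 14 of the 67 fell and 1 rose in edgeR, or 22.4% called against 11.4% of all genes, and their median log2 fold change was -0.20. The list of matrix and inner membrane proteases and chaperones, where Lonp1 has its nearest functional relatives, had 6 of 12 genes lower and 0 higher, with a median of -0.31. Clpx, the unfolding ATPase of the ClpXP protease, went from 83.2 to 88.4 CPM in Sham to 52.0 to 57.5 CPM in MI (log2 fold change -0.64, edgeR adjusted p = 1.32e-04). The chaperones Hspa9 and Hspd1 had log2 fold changes of -0.53 each (edgeR adjusted p = 4.03e-04 and 0.00308), and the inner membrane scaffold Phb had one of -0.46 (edgeR adjusted p = 0.00115). At the ends of the genes of this list that were not called stood the scaffold partner Phb2 at -0.32 and the protease Oma1 at 0.18.

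RNA processing and stability, the steps that follow transcription, had 3 of 17 measured genes lower and 0 higher, with a median of -0.24. These were Hsd17b10, a subunit of mitochondrial RNase P (-0.58, edgeR adjusted p = 4.27e-04), Lrpprc, which binds and stabilises mitochondrial mRNAs (-0.46, edgeR adjusted p = 0.00383), and Fastk, needed for the Mt-nd6 mRNA (-0.31, edgeR adjusted p = 0.0200). DESeq2 called 4 genes of this list. Prorp, the nuclease of the same RNase P, had a log2 fold change of -0.52 without a call, and Fastkd1 one of 0.20.

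Closest to the members in function were the lists of replication and repair, nucleotide supply, and elongation and termination, and they held 1, 0 and 1 calls among 11, 7 and 6 measured genes. Poldip2, a polymerase-interacting protein found in mitochondria and the nucleus, averaged 74.5 ± 4.34 CPM for Sham and 54.6 ± 4.18 CPM for MI (± SD, n = 4 per group, log2 fold change -0.45, edgeR adjusted p = 0.00234). The ends of the rest of that list were Exog (0.74) and Endog (-0.56), both mitochondrial nucleases and both not called. Mrpl12, a ribosomal protein that also binds Polrmt, had a log2 fold change of -0.42 (edgeR adjusted p = 0.0417), while the elongation factor Tefm was at -0.41 and the termination family member Mterf3 at 0.21, without calls. All 7 measured nucleotide supply genes had log2 fold changes below 0, from -0.46 (Slc25a33, a pyrimidine nucleotide carrier) to -0.15 (Dguok, the deoxyguanosine kinase), and edgeR and DESeq2 each called 0 of them, with 1 at an unadjusted p under 0.05.

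Nuclear regulators of mitochondrial genes gave 3 falls and 1 rise among 14. The coactivators Ppargc1a and Ppargc1b had log2 fold changes of -0.55 and -0.39 (edgeR adjusted p = 0.00241 and 0.0159), and the orphan receptor Esrrb one of -0.78 (edgeR adjusted p = 0.0226). Myc rose, averaging 3.77 ± 1.20 CPM for Sham and 11.1 ± 5.88 CPM for MI (± SD, n = 4 per group, log2 fold change 1.52, edgeR adjusted p = 0.00314). Nrf1 and Gabpa are the factors of the motifs that were found in the members' promoters. Their log2 fold changes were 0.20 and -0.04, with edgeR adjusted p-values of 0.375 and 0.855. The ends of the genes not called were Gabpb2 (0.27) and Ppara (-0.34).

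**Figure D4:**
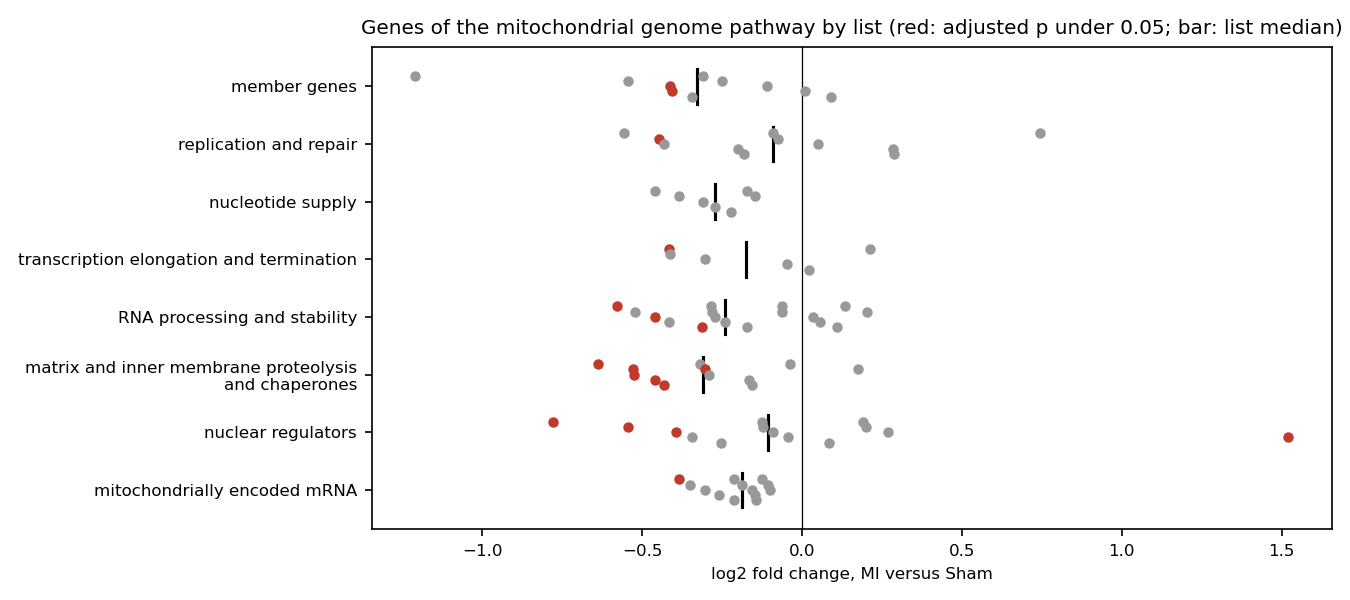
Each point is a gene, placed by its log2 fold change in MI versus Sham on the x axis and by list on the y axis, in red where the edgeR adjusted p was under 0.05, with a black bar at the list median. The list medians run from -0.33 (the 10 members) to -0.09 (replication and repair), and Myc, at 1.52, is the red point to the right of 0.

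The RNA made from the mitochondrial genome itself was the next measurement. The 13 mitochondrially encoded mRNAs took 56.2% ± 2.30 of the reads on genes for Sham and 53.4% ± 3.05 for MI (± SD, n = 4 per group). The groups overlapped, and the difference of -2.77 percentage points had an exact permutation p of 0.143 (two-sided). It ran from -4.15 percentage points without MI rat 57 to -1.70 without MI rat 61. All 13 had log2 fold changes below 0, with a median of -0.19, from -0.10 for Mt-nd3 to -0.38 for Mt-co1, both encoding respiratory chain subunits. The TMM factors behind these values averaged 0.925 in Sham and 1.05 in MI. A larger factor lowers every CPM of a library, so the sign shared by all 13 rests in part on this scaling. Mt-co1 was called (edgeR adjusted p = 0.0182), with 178401 to 206756 CPM in Sham and 124303 to 168586 CPM in MI. The count of calls was 2 with DESeq2, and it was 0 without Sham rat 12 or MI rat 61 and 3 without MI rat 57.

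Mt-nd6 is the mRNA read from the opposite strand to the other 12, from the light-strand promoter. Its log2 fold change was -0.14 (edgeR adjusted p = 0.430). Within each rat the log2 ratio of Mt-nd6 to the sum of the other 12 averaged -7.42 ± 0.07 for Sham and -7.31 ± 0.06 for MI (± SD, n = 4 per group). It was higher by 0.11 in MI, with 1 Sham rat inside the MI range (exact permutation p = 0.0571, two-sided). In percent, Mt-nd6 made up 0.561% to 0.621% of the 13 mRNAs in Sham and 0.595% to 0.661% in MI.

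**Figure D5:**
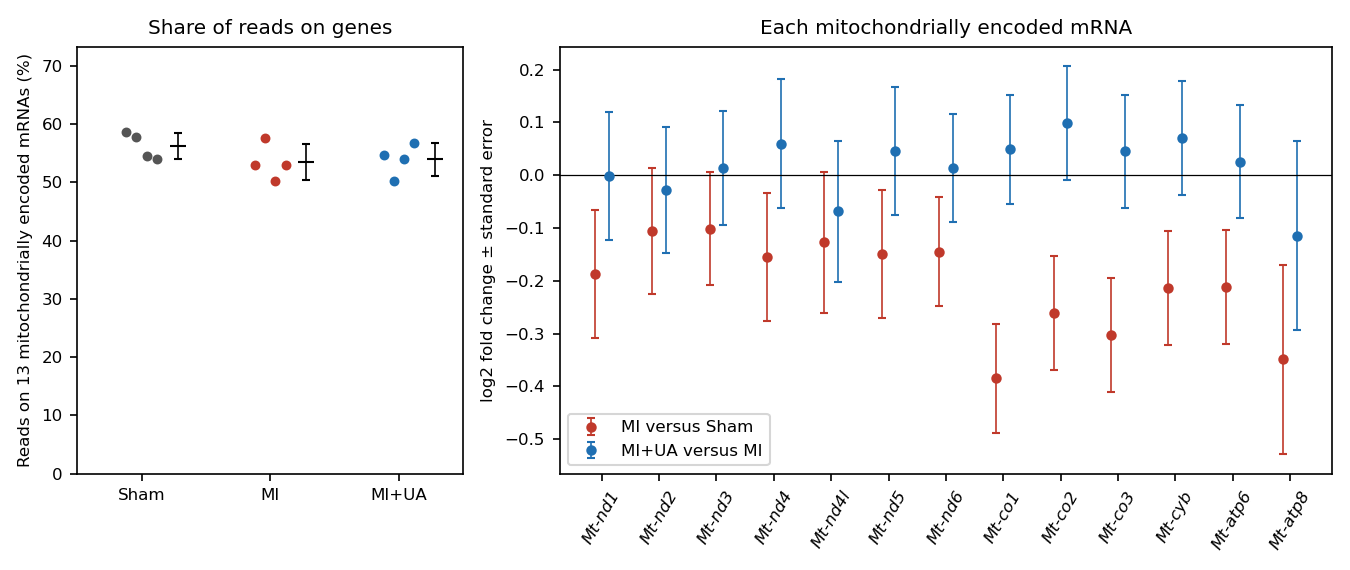
The left panel plots the share of reads on the 13 mitochondrially encoded mRNAs in each rat, with mean and SD as a bar beside the points, and the right panel plots the log2 fold change of each mRNA with its standard error for MI versus Sham (red) and MI+UA versus MI (blue). The shares lie between 50.2% and 58.6%, and all 13 red points lie below 0.

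UA was compared with vehicle among infarcted rats next. None of the 10 genes differed by the test, with point estimates above 0 for 6 genes and below 0 for 4 and a median log2 fold change of 0.07. EdgeR called 0 of the 10 and 0 of all 18182 genes (0%), DESeq2 called 0 as well, and at an unadjusted p under 0.05 edgeR had 1 of the 10, Mgme1, against 689 genes or 3.79% of all. No member's groups lay wholly apart, which 2.34% of all genes' groups did.

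Mgme1 gave 26, 15, 13 and 29 reads in MI+UA rats 29, 58, 64 and 66, or 1.49, 1.93, 1.76 and 1.63 CPM. The UA-treated rats lay close together and above MI rats 36, 61 and 89, while MI rat 57, at 1.72 CPM, lay among them. The log2 fold change was 1.09 (standard error 0.42, 95% interval 0.22 to 1.97), with an unadjusted p of 0.0163 and an adjusted p of 1.00 in edgeR. Within each rat the log2 ratio of Polg to Mgme1 ran from 2.81 to 4.50 in MI and from 2.43 to 2.78 in MI+UA. The difference in means was -1.15 and the groups did not overlap (exact permutation p = 0.0286, two-sided, and adjusted p = 0.229 over the 16 ratios). Counting rat 66 as MI gave -0.92 and an exact permutation p of 0.107.

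Tfb2m, lower in MI than in Sham, read 25.5, 27.0, 21.7 and 26.8 CPM in MI+UA rats 29, 58, 64 and 66. It was above every MI rat in rats 29, 58 and 66 and within the MI range in rat 64, and the log2 fold change of 0.24 (95% interval -0.02 to 0.50) had an unadjusted edgeR p of 0.0678. With rat 66 counted as MI it was 0.13. Lonp1 read 17.2, 13.6, 17.7 and 17.7 CPM in the same rats, with rat 58 below every MI rat, and its log2 fold change was 0.06 (95% interval -0.19 to 0.31). Counted with rat 66 in MI, the Lonp1 estimate changed sign to -0.01.

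The remaining estimates had intervals on both sides of 0. Ssbp1 read 2.97, 5.78, 4.33 and 3.15 CPM in MI+UA rats 29, 58, 64 and 66, a log2 fold change of 0.35 (95% interval -0.17 to 0.87) that was 0.15 without rat 58. Tfam had a log2 fold change of -0.09 (95% interval -0.45 to 0.26), Polrmt of 0.10 (95% interval -0.26 to 0.45) and Tfb1m of 0.09 (95% interval -0.33 to 0.51). Polg (-0.05, 95% interval -0.33 to 0.22) and Twnk (-0.01, 95% interval -0.30 to 0.29) were again the most tightly bounded of the replication genes. Polg2, at -0.12, had an interval from -0.72 to 0.49.

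Of the 67 pathway genes edgeR and DESeq2 each called 0 with UA, and their median log2 fold change was 0.06. Among the genes named above, Hspd1 lay between 36.1 and 52.2 CPM in MI and between 53.2 and 66.5 CPM in MI+UA, without overlap. Its log2 fold change was 0.37, and edgeR gave an unadjusted p of 0.00287 and an adjusted p of 1.00. Hspa9 (0.19), Phb2 (0.24) and Myc (-0.75) also had an unadjusted p under 0.05 in edgeR. Of the mitochondrially encoded mRNAs, edgeR and DESeq2 each called 0 of 13 and none had an unadjusted p under 0.05. Their share of reads in MI+UA averaged 53.9% ± 2.76 (SD, n = 4), 0.475 percentage points above MI (exact permutation p = 0.743). The log2 ratio of Mt-nd6 to the other 12 averaged -7.34 ± 0.04 (SD, n = 4), a difference of -0.03 from MI (exact permutation p = 0.371). Cardiomyocyte markers summed to 11032, 10309, 10848 and 12986 CPM in MI+UA rats 29, 58, 64 and 66, and rats 29, 64 and 66 lay above every MI rat. Of the 7 markers 1, Myh6, had an unadjusted p under 0.05, with 2429 to 3148 CPM in MI and 3273 to 4222 CPM in MI+UA, without overlap (log2 fold change 0.39, edgeR unadjusted p = 0.00167 and adjusted p = 1.00). Of the other cell type markers, edgeR and DESeq2 called none. EdgeR had an unadjusted p under 0.05 for the macrophage marker Cd163 (log2 fold change -0.41), the smooth muscle marker Tagln (-0.45) and Fabp4 of the adipocyte list (-0.26). All 6 endothelial markers had log2 fold changes below 0 (median -0.09) and all 8 fibroblast markers above 0 (median 0.06). The part of these shifts in the Mgme1 and Tfb2m estimates was not tested.

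UA-treated infarcted rats were set beside Sham rats last, a comparison that shares its Sham rats with the first. EdgeR called 0 of the 10 members, DESeq2 0, and 9.44% of all genes were called. At an unadjusted p under 0.05 edgeR had 1 member, Lonp1, against 21.8% of all genes. Lonp1 was also the 1 member whose groups lay wholly apart (14.3% of all genes), with at most 17.7 CPM in MI+UA and at least 18.5 CPM in Sham, and its log2 fold change was -0.35 with a standard error of 0.12 (adjusted p = 0.0848 by edgeR). Tfb2m was at -0.17 (95% interval -0.43 to 0.09, and -0.07 without Sham rat 32), Tfam at -0.34 (95% interval -0.70 to 0.01) and Mgme1 at -0.11 (95% interval -0.92 to 0.69). In the pathway lists 9 of 67 genes were called, all lower in MI+UA, among them Clpx, Hspa9, Phb, Hsd17b10, Lrpprc, Fastk, Poldip2 and Ppargc1a. The count was 5 without Sham rat 38 and 5 without MI+UA rat 58. In the same comparison all 7 measured cardiomyocyte markers were lower in edgeR (median log2 fold change -0.39), while 6 of 8 fibroblast markers (median 1.23) and 7 of 8 macrophage markers (median 0.72) were higher. Endothelial Kdr (-0.52) and Fabp4 of the adipocyte list (-0.54) were lower and the pericyte marker Pdgfrb (0.63) higher. EdgeR called no other marker of those lists. Adipoq (3.11) and Plin1 (1.31), the other adipocyte markers measured, had point estimates above 0 without a call. The part of these shifts in the Lonp1 and pathway values was not tested.

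From rat to rat, the correlations between the 10 genes varied widely. Counting error draws r towards 0 for the genes with few reads, so a shared movement could be missed. With group means removed, Pearson's r of log2 CPM over the 12 rats ran from -0.90 to 0.75 over the 45 pairs of members, with a median of 0.09 and 27 pairs above 0. The highest was Polrmt with Lonp1 and the lowest Polg with Tfb2m, and all pairs share the libraries and their scaling. Tfb2m and Lonp1, the genes called in MI, had an r of 0.63 over the 12 rats and 0.34 with group means removed.

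Genes whose profile over the 12 rats was most like theirs were sought among 10929 genes with a symbol and an average log2 CPM of at least 1. For Tfb2m they were Farsb, a subunit of phenylalanyl-tRNA synthetase (r = 0.93, and 0.87 with group means removed), the zinc transporter Slc30a9 (0.91 and 0.86) and SNORD36, a small nucleolar RNA (0.88 and 0.90). For Lonp1 they were the autophagy kinase Ulk1 (0.93 and 0.85), the autophagy lipid transfer protein Atg2a (0.93 and 0.84) and the complex II subunit Sdhb (0.92 and 0.82). The genes were chosen by the first r of each pair, which includes the differences between groups, so their own group differences are no separate result. The second r comes from the same rats and from genes already chosen, so it is no separate result either. In MI versus Sham edgeR called all 3 of the Lonp1 genes, with log2 fold changes of -0.34, -0.37 and -0.50, and none of the 3 of Tfb2m, at -0.20, -0.14 and -0.61 (adjusted p from 0.196 to 0.326).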

How the data were processed

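RNA of 12 rat hearts, 4 per group, was analysed. The authors depleted ribosomal RNA, prepared strand-specific libraries, aligned the reads with STAR (2.6.1c) to mRatBN7.2 and deposited htseq-count read counts per gene, unnormalised, with 5 summary lines that were left out here. The labels also list the molecule as polyA RNA, whereas the protocol describes depletion of ribosomal RNA, and the share of reads on mitochondrial mRNAs depends on which was used. The strand setting of the counting is not given in the sources used here, so reads of overlapping genes may not be told apart. EdgeR (4.0.16) quasi-likelihood fits used those counts for every gene whose total reached 10: TMM scaling, the 3 groups in 1 fit, and Benjamini-Hochberg adjustment over all genes with a threshold of 0.05. DESeq2 (1.42.0) was an alternative. Log2 ratios within a rat used log2 CPM with a prior count of 1 and two-sided exact permutation tests over 70 groupings. Standard errors are the log2 fold change divided by the square root of F. The scripts were tested on simulated data. The 10 genes and all gene lists were chosen with earlier results of these data known. Genes named from a list were those called in MI versus Sham, at most 4 by smallest p, and the ends of the genes not called. Nrf1, Gabpa, the genes overlapping members, the single cell type markers and the member pairs at the ends of the correlations were named after their values were seen, and the log2 differences of the summed markers were added then. The labels give no batch, and each p-value sets a group difference against the variation between these rats. Lists of pathway genes had 2 genes without a test (Tymp, with 0 counts, and Fastkd5, not analysed here). A further MI+UA library mentioned in the labels was not analysed here. Alternatives are in the closing section. Intervals on reads cover counting error only.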

Additional observations from a re-analysis of the deposited data

Results flagged for a closer look

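Within groups of 4 rats, 39 sets of values were examined for a rat whose gap to its nearest neighbour exceeded Dixon's 95% limit, given as a ratio to the group's range, which chance passes in about 1 of 20 sets, and 4 exceeded it. Sham rat 12 was low for Polrmt, at a log2 CPM of 3.09 against 3.51 to 3.56 in the other Sham rats (ratio 0.891). MI rat 36 was high for Lonp1, at 4.26 against 3.87 to 3.92 (ratio 0.864), and without it the log2 fold change of Lonp1 in MI versus Sham was -0.51 (edgeR adjusted p = 0.0120). MI+UA rat 58 was low for Lonp1, at 3.78 against 4.11 to 4.16 (ratio 0.885). The same rat was low in the percentage of its reads on genes among those on genes, outside genes or on several genes, at 46.2% against 50.3% to 50.8% (ratio 0.882).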

How the results depend on the processing

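Over the alternatives run for each of the 10 genes, direction and side of the threshold were kept by 130 of 150 log2 fold changes in MI versus Sham, 144 of 150 in MI+UA versus MI and 147 of 150 in MI+UA versus Sham. The 2 calls of MI versus Sham were made under all alternatives that changed the test, scaling, filter or groups fitted, and became 1 with rat 66 counted as MI. Leaving out each rat gave 0 to 2 members called. With rat 66 counted as MI the sign turned for Polg in MI versus Sham (-0.014) and, in MI+UA versus MI, for Tfb1m (-0.062), Lonp1 (-0.010), the share of reads on mitochondrially encoded mRNAs (-1.15 percentage points) and the Mt-nd6 ratio (0.0082). With only the groups compared in the fit Polg turned to -0.0072. The count of mitochondrially encoded mRNAs called in MI versus Sham was 2 with DESeq2 and 2 with only the groups compared, and 0 to 3 when each rat was left out. Over all genes, 3 were called in MI+UA versus MI when every gene with at least 1 count was tested, and 0 to 1 when each rat was left out. The pathway list count, whose alternatives were chosen after seeing the data, ran from 5 to 11 in MI+UA versus Sham when each rat was left out. Leaving out each rat also turned signs, with ranges of -0.053 to 0.12 (Polg) and -0.0084 to 0.18 (Tfb1m) in MI versus Sham, -0.11 to 0.071 (Twnk) in MI+UA versus MI, and -0.11 to 0.065 (Polg) and -0.36 to 0.058 (Mgme1) in MI+UA versus Sham. The share of reads ran from -0.594 to 1.86 percentage points in MI+UA versus MI, the log2 ratio of Polg to Polg2 from -0.084 to 0.29, and that of Polrmt to Tfb2m from -0.036 to 0.17 in MI versus Sham and from -0.26 to 0.012 in MI+UA versus MI. The cause was not tested. Without each rat the exact permutation p ran from 0.0286 to 0.0857 for the Tfb2m to Tfb1m ratio in MI versus Sham and from 0.0286 to 0.0571 for the Polg to Mgme1 ratio in MI+UA versus MI. No paired analysis was possible because each rat belongs to a single group. Depth limits Mgme1 and Polg2 most.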
